A study of Mus musculus with 4 samples.

Results

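The genes described here are a set of 10 that report or restrain signalling from Ras to the kinase ERK: the MAP kinase phosphatases Dusp4, Dusp5 and Dusp6, the Sprouty inhibitors Spry1, Spry2 and Spry4, their relative Spred1, the Ets-type transcription factors Etv4 and Etv5, and the AP-1 gene Fosl1. Members were found by matching the accession of each array probe to a gene symbol. Of the 10 genes, 9 were matched, by 13 of 41170 probes, and Dusp5 was not matched to a probe and is not analysed here. Of these 9 genes, 7 were well above background on at least 1 array and 6 on all 4, among 32300 genes or transcripts in all.

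The samples were lung tumors and non-tumor lung of female ICR mice aged 6 months, either Nrf2+/+ or Nrf2-/-, which lack the transcription factor Nrf2 (gene Nfe2l2). All animals in all 4 groups had received urethane, a carcinogen that induces lung tumors, at 1 g/kg by intraperitoneal injection 16 weeks earlier, so no group represents untreated lung. Each genotype gave a pool of non-tumor lung and a pool of tumors, which measured 1.0 to 1.5 mm and had been freed from surrounding tissue. The sources used here do not say whether both tissues came from the same animals. RNA of 8 mice per group was pooled and hybridised to 1 array per group, so there are no replicates, and the difference between 2 arrays carries no p-value.

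On the arrays 54.2% to 63.5% of spots were well above background, and no spot was saturated. One slide carried the array of Nrf2+/+ non-tumor lung, and another slide carried the 3 remaining arrays. Both probes of Nfe2l2 were bright in the Nrf2+/+ pools (6147 to 7913 intensity units) and not well above background in the Nrf2-/- pools. Levels below are log2 signal minus the array's 75th percentile, and the error given with a difference is 1 SD from the scanner software's error model, which covers the measurement of the spots and not the spread between mice or pools. The 75th percentile was lower on the tumor arrays (555 and 584 intensity units) than on the non-tumor arrays (760 and 742), so an equal raw signal gives a higher level in tumor.

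Growth factor receptors activate Ras, which passes the signal through Raf and MEK to ERK, and active ERK induces genes that switch the cascade off again. Dusp4 and Dusp6 encode phosphatases that dephosphorylate MAP kinases, in the nucleus and in the cytoplasm respectively, while Sprouty and Spred proteins act upstream, between the receptor and Raf. Etv4 and Etv5 are Ets factors of the Pea3 group that carry the transcriptional output of fibroblast growth factor and Ras signalling in the lung epithelium, and Fosl1 encodes the AP-1 subunit Fra-1.

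The stretches of 250 bases before the RefSeq start of Dusp6, Spry1 and Spry2 are shown because these 3 feedback inhibitors were at least 2-fold higher in Nrf2+/+ tumor than in non-tumor lung. Dusp4 and Etv4 also passed this mark, but their stretches, and those of Spry4 and Fosl1, were not examined. The 3 stretches shown are from GRCm38.p6, on chr10:99262981-99263230 (plus strand), chr3:37639697-37639946 (plus strand) and chr14:105896820-105897069 (minus strand). The capitals mark GGAA, the core recognised by Ets factors, on either strand.
Dusp6: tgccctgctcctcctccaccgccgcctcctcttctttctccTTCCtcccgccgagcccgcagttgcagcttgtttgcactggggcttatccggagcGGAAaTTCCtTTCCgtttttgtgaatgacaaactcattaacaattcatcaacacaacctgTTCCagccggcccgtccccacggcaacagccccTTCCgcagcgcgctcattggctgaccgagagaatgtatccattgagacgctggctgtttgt
Spry1: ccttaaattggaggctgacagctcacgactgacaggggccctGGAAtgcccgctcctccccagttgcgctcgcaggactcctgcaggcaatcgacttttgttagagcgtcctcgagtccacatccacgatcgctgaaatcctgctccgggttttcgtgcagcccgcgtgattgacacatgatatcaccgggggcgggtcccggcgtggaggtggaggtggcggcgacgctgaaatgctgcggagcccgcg
Spry2: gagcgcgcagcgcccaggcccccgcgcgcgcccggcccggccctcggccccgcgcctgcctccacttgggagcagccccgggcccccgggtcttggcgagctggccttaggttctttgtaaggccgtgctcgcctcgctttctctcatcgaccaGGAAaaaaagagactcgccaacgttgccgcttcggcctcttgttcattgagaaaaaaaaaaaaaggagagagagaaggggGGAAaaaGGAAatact
GGAA occurred 6 times in the Dusp6 stretch, 1 time in that of Spry1 and 3 times in that of Spry2. It was in 93.4% of 32851 promoter stretches of the same length, 8.69% of which held 6 or more. The longer Ets core CCGGAA (in 12.03% of all stretches), the AP-1 site TGANTCA (6.75%) and the core TGACGT of the cyclic AMP response element (6.47%) had no match in these 3 stretches on either strand, nor in the stretches of Spred1 and Etv5, and that of Dusp5 held TGACGT 1 time. CCGGAA contains GGAA, and GGAA was searched only after the longer motifs had been seen to be missing. A match is a run of letters and not a binding site, and a missing one says nothing of the factor.

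Among the phosphatases, Dusp4 had a signal of 102 intensity units in Nrf2+/+ non-tumor lung, 86.4 in Nrf2-/- non-tumor lung, 375 in Nrf2+/+ tumor and 269 in Nrf2-/- tumor. Both tumor arrays were above both non-tumor arrays, and within each tissue the Nrf2+/+ array was the brighter. The tumor difference was 2.33 ± 0.22 on the log2 scale (5.03-fold) in Nrf2+/+ and 1.98 ± 0.22 (3.96-fold) in Nrf2-/- mice. In the Nrf2+/+ comparison this was above the differences of 98.3% of all measured genes.

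Dusp6, the ERK-specific phosphatase of the cytoplasm, was bright everywhere, with signals of 7983 and 8476 in Nrf2+/+ and Nrf2-/- non-tumor lung and 12508 and 11764 in the matching tumors. Tumor arrays were again above non-tumor arrays, and the genotypes lay close together within each tissue. Its tumor difference was 1.10 ± 0.20 (2.14-fold) in Nrf2+/+ and 0.82 ± 0.20 (1.76-fold) in Nrf2-/- mice.

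Among the Sprouty genes, whose products interrupt receptor signalling to Ras and Raf, Spry1 had signals of 10166 in Nrf2+/+ non-tumor lung, 8897 in Nrf2-/- non-tumor lung, 15154 in Nrf2+/+ tumor and 9709 in Nrf2-/- tumor. In raw signal the Nrf2-/- tumor array was below the Nrf2+/+ non-tumor array, and after scaling both tumor arrays were above both non-tumor arrays. The tumor difference was 1.03 ± 0.20 (2.04-fold) in Nrf2+/+ and 0.47 ± 0.20 (1.39-fold) in Nrf2-/- mice.

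Spry2 had 2 probes that read differently. The brighter one gave 1257 and 1356 intensity units in Nrf2+/+ and Nrf2-/- non-tumor lung, 2422 in Nrf2+/+ tumor and 1730 in Nrf2-/- tumor, with tumor differences of 1.40 ± 0.20 and 0.70 ± 0.20. The dimmer one, also well above background on all 4 arrays, gave 63.6, 54.8, 61.0 and 53.0 in the same group order and differences of 0.39 and 0.30. In raw signal the dimmer probe was slightly lower in tumor within each genotype, so its tumor arrays came out higher only through scaling. With spike-in scaling its differences were 0.19 in Nrf2+/+ and 0.02 in Nrf2-/- mice. A 2-fold difference was read by the brighter probe alone. The mean of both probes gave 0.90 in Nrf2+/+ and 0.50 in Nrf2-/- mice.

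Spry4 was not well above background on any array with either of its probes, whose signals ranged from 4.68 to 9.50 intensity units. The dimmest signals well above background on these arrays were 20.6 to 29.4, so the level of Spry4 was not measured.

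Spred1, which holds back the activation of Raf by Ras, followed another order. Its signal was 163 in Nrf2+/+ non-tumor lung, 68.5 in Nrf2-/- non-tumor lung, 133 in Nrf2+/+ tumor and 113 in Nrf2-/- tumor. The low value was that of Nrf2-/- non-tumor lung, while the other 3 arrays lay near each other, so the tumor and non-tumor arrays overlapped. The tumor difference was 0.16 ± 0.21 in Nrf2+/+ and 1.07 ± 0.24 (2.10-fold) in Nrf2-/- mice, and the first became -0.05 under spike-in scaling. The difference between these differences was 0.91 ± 0.32, or 0.45 over the mean of both probes; the second probe of Spred1 was not well above background on any array.

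**Figure D1:**
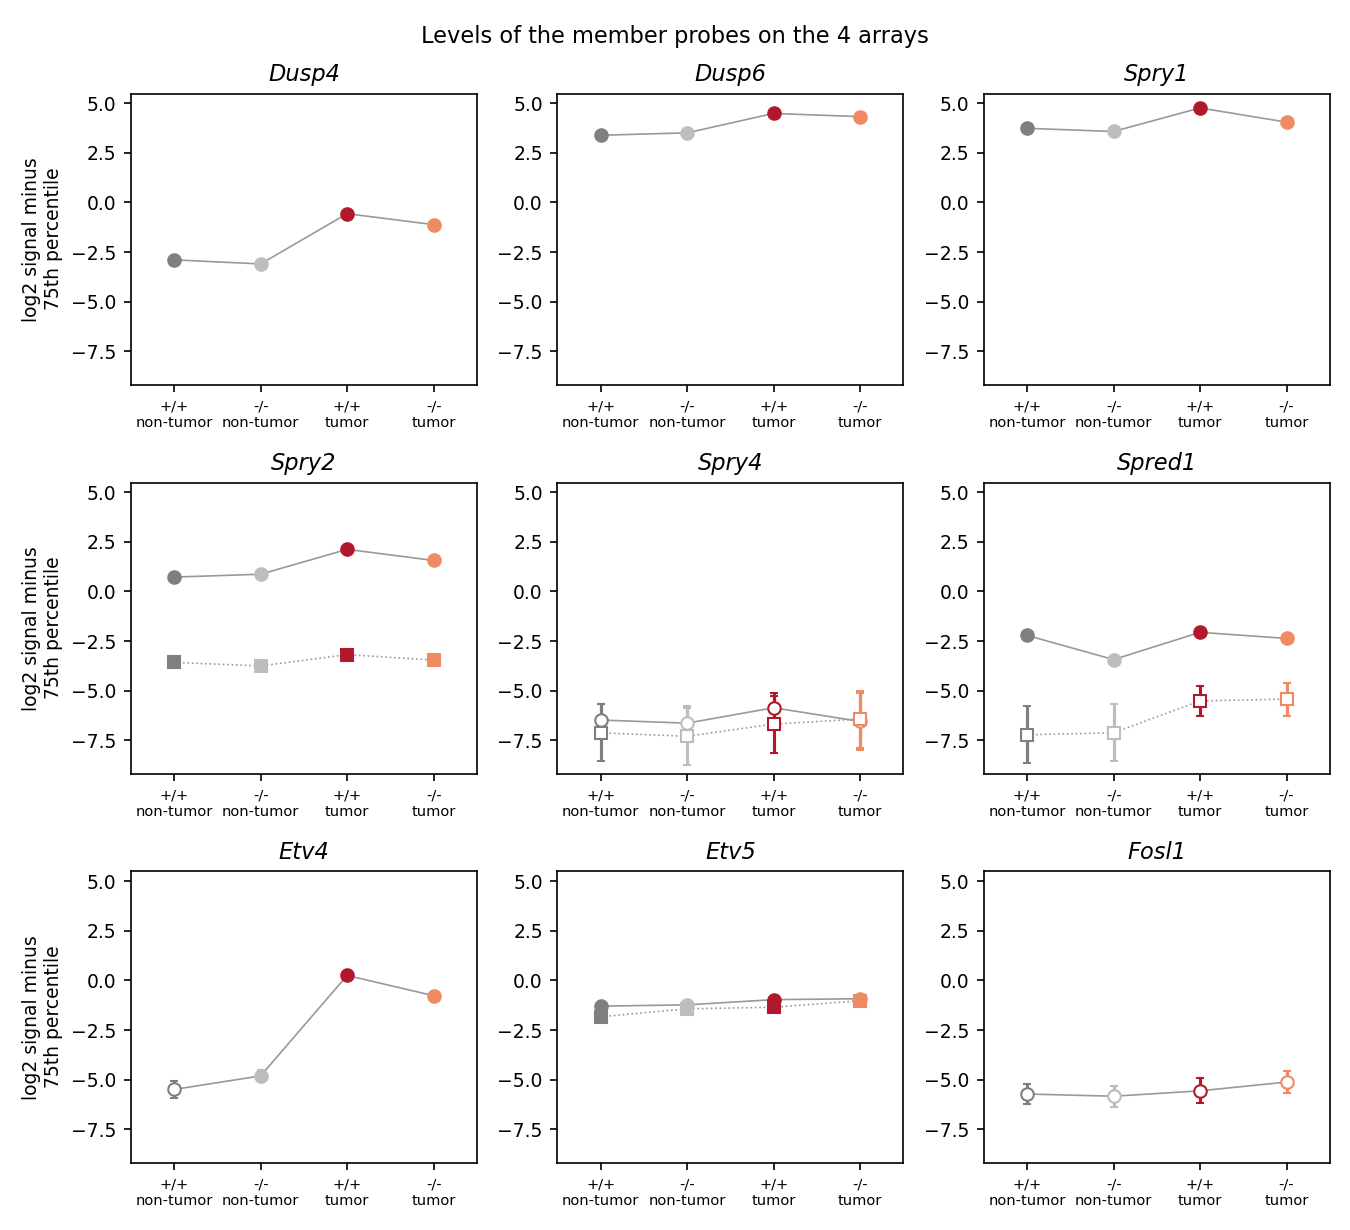
Level of each member probe on the 4 arrays (log2 signal minus the array's 75th percentile), 1 panel per gene; grey points are non-tumor lung, red and orange points tumor, filled where well above background and open where not, squares a second probe, lines join the arrays of a probe, and bars are 1 SD of the scanner software. Dusp4 and Etv4 show the largest steps from non-tumor lung to tumor, Spred1 is low in Nrf2-/- non-tumor lung alone, and Spry4 and Fosl1 are open on all arrays.

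Etv4 stood out among the members. Its signal was 16.8 in Nrf2+/+ non-tumor lung, which was not well above background, 26.3 in Nrf2-/- non-tumor lung, 662 in Nrf2+/+ tumor and 343 in Nrf2-/- tumor. The gene was at the edge of detection in non-tumor lung and clearly measured in both tumors. Set against the dimmest level well above background on the non-tumor array, Etv4 was 41.6-fold higher in Nrf2+/+ tumor. This is not a strict bound, since a probe brighter than that level can still fail the background call. Between the Nrf2-/- arrays the difference was 4.05 ± 0.33 (16.6-fold). With normexp background correction, which adds an offset to every spot, the differences were 3.40 and 2.23.

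Etv5, its close relative and a factor that maintains alveolar type 2 cells, gave 309 and 316 intensity units in Nrf2+/+ and Nrf2-/- non-tumor lung and 284 and 308 in the matching tumors. The raw signals of this probe nearly coincided on the 4 arrays, and the tumor arrays came out higher only through scaling, with tumor differences of 0.33 ± 0.21 and 0.31 ± 0.21. Its second probe had raw signals of 214 and 275 in non-tumor lung and 218 and 287 in tumor, higher in Nrf2-/- than in Nrf2+/+ and slightly higher in tumor within each genotype. The tumor differences by that probe were 0.48 and 0.41. Spike-in scaling lowered those of the first probe to 0.13 and 0.03. Within the same pair of arrays, where scaling cancels, Etv4 exceeded Etv5 by 3.74 ± 0.39 in Nrf2-/- mice, and by 2.01 to 3.77 over the settings.

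Fosl1 was not well above background on any array. Its signals were 14.3, 12.9, 11.7 and 16.7 in the group order above, and in raw signal tumor and non-tumor arrays overlapped. After scaling, both tumor arrays (-5.57 and -5.13) were above both non-tumor arrays (-5.73 and -5.84), with errors of 0.49 to 0.63. As no signal was well above background, the level of Fosl1 was not measured.

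The first question was which of these genes differed between tumor and non-tumor lung. In Nrf2+/+ mice 5 of the 7 measured members (Dusp4, Dusp6, Spry1, Spry2 and Etv4) were at least 2-fold higher in tumor and none was lower, beside 8.08% of 19913 measured genes at least 2-fold higher and 15.3% lower. The median over the 7 members was 1.10, beside -0.03 over all measured genes. In Nrf2-/- mice 3 of 7 (Dusp4, Spred1 and Etv4) were at least 2-fold higher, none was lower, and the median was 0.82, beside 5.43% of 19426 genes higher, 9.13% lower and a median of -0.03. Dusp4 and Etv4 passed the mark in both genotypes, as did 3.51% of 18786 genes measured in both, while 6.69% of these genes and no member were lower in both. Etv4 was counted in Nrf2+/+ mice through its tumor array, so it had to be higher there to be counted.

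Both tumor arrays were above both non-tumor arrays for 6 of the 7 members, all but Spred1, beside 30.4% of 20553 genes; a further 33.3% of genes had both tumor arrays below both non-tumor arrays. For these 6 this held under all 8 settings of scaling, background correction, value source and probe choice, and for Spred1 under 4 of 8. The settings are not 8 separate checks. The submitters' values equalled the processed signal within rounding, and the mean of all probes changes nothing for genes with 1 probe. For Etv5 in Nrf2-/- mice the tumor difference under spike-in scaling was 0.03, beside a scanner software error of 0.21. The 2-fold count in Nrf2+/+ mice fell to 3 with quantile normalization and with spike-in scaling, where Dusp6 (0.93 and 0.90) and Spry1 (0.80 and 0.83) came under the mark. It was 4 with the mean of all probes, where Spry2 (0.90) came under the mark. The count was also 4 when both arrays had to be well above background, which left out Etv4. In Nrf2-/- mice the count was 2 with spike-in scaling and with normexp, where Spred1 (0.79 and 0.82) came under it.

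**Figure D2:**
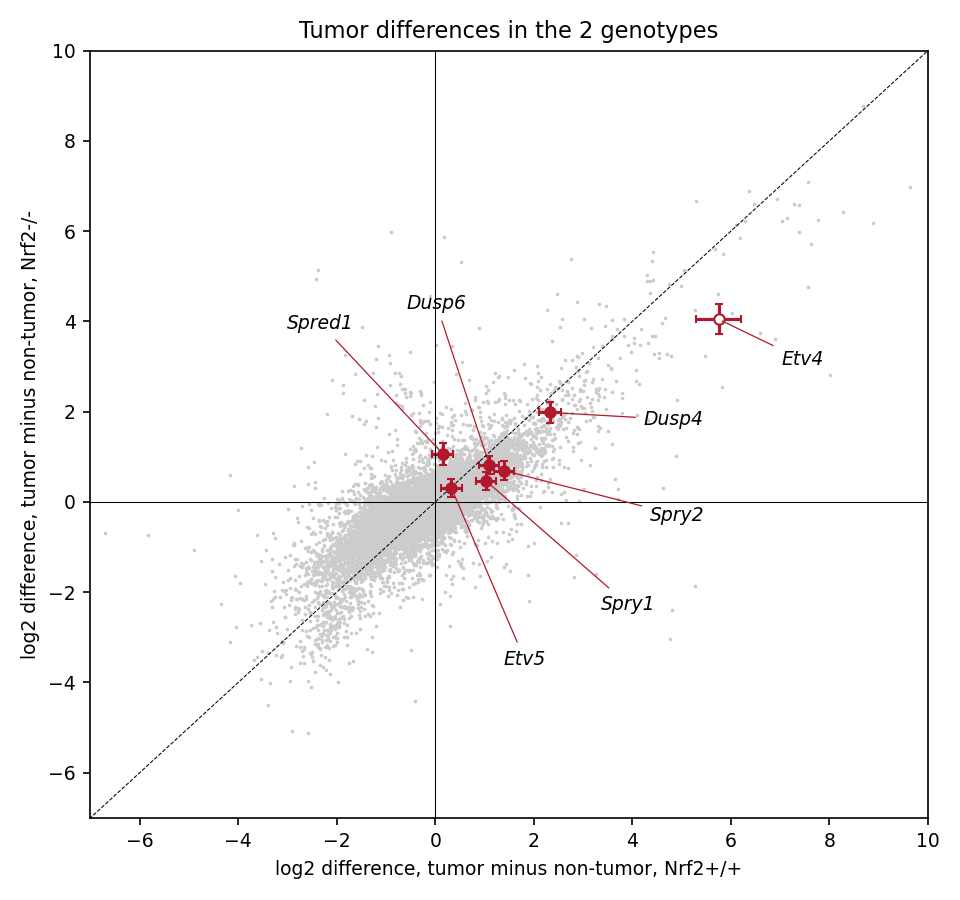
Tumor minus non-tumor difference (log2) in Nrf2+/+ mice on the x axis and in Nrf2-/- mice on the y axis; grey points are all genes measured in both, red points the 7 measured members with 1 SD of the scanner software, the open point Etv4, which was not well above background in Nrf2+/+ non-tumor lung, and the dashed line marks equal differences. All 7 members lie above 0 on both axes, with Spred1 lowest in Nrf2+/+ (0.16), Etv5 lowest in Nrf2-/- (0.31) and Etv4 highest in both, and Spred1 alone lies above the dashed line.

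The single test the design allows is an additive fit of tissue and genotype over the 4 arrays, in which the genotypes serve as the replicates of each other and 1 residual degree of freedom is left. In this limma fit no gene of 20553 had an adjusted p (Benjamini-Hochberg) under 0.05, that is 0% for the tumor effect, while 6096 genes (29.7%) had an unadjusted p under 0.05. Dusp4 had a tumor effect of 2.16 ± 0.18 (SE) with a limma adjusted p of 0.071, and Dusp6 one of 0.96 ± 0.17 with 0.087. Spry2 (1.05 ± 0.25) and Spry1 (0.75 ± 0.22) had limma adjusted p-values of 0.12 and 0.15, and Spred1 (0.61 ± 0.30) and Etv5 (0.32 ± 0.15) had 0.27 and 0.27. Etv4 had 0.071, with a fitted effect that includes an array on which it was not well above background. None of the members thus passed the test as planned.

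The outcome of that test turned on its settings. With a trend of the variance on the mean level, limma called 22.5% of genes at an adjusted p under 0.05, and 5 of the 7 members (Dusp4, Dusp6, Spry1, Spry2 and Etv4) were among them. With normexp the same 5 members were called, beside 15.5% of genes. Over all fits the adjusted p of Dusp4 ranged from 0.0019 to 0.074 and was under 0.05 in 6 of 11, that of Dusp6 from 0.0070 to 0.11 (4 of 11), and those of Spred1 and Etv5 stayed above 0.05 in all 11.

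**Figure D3:**
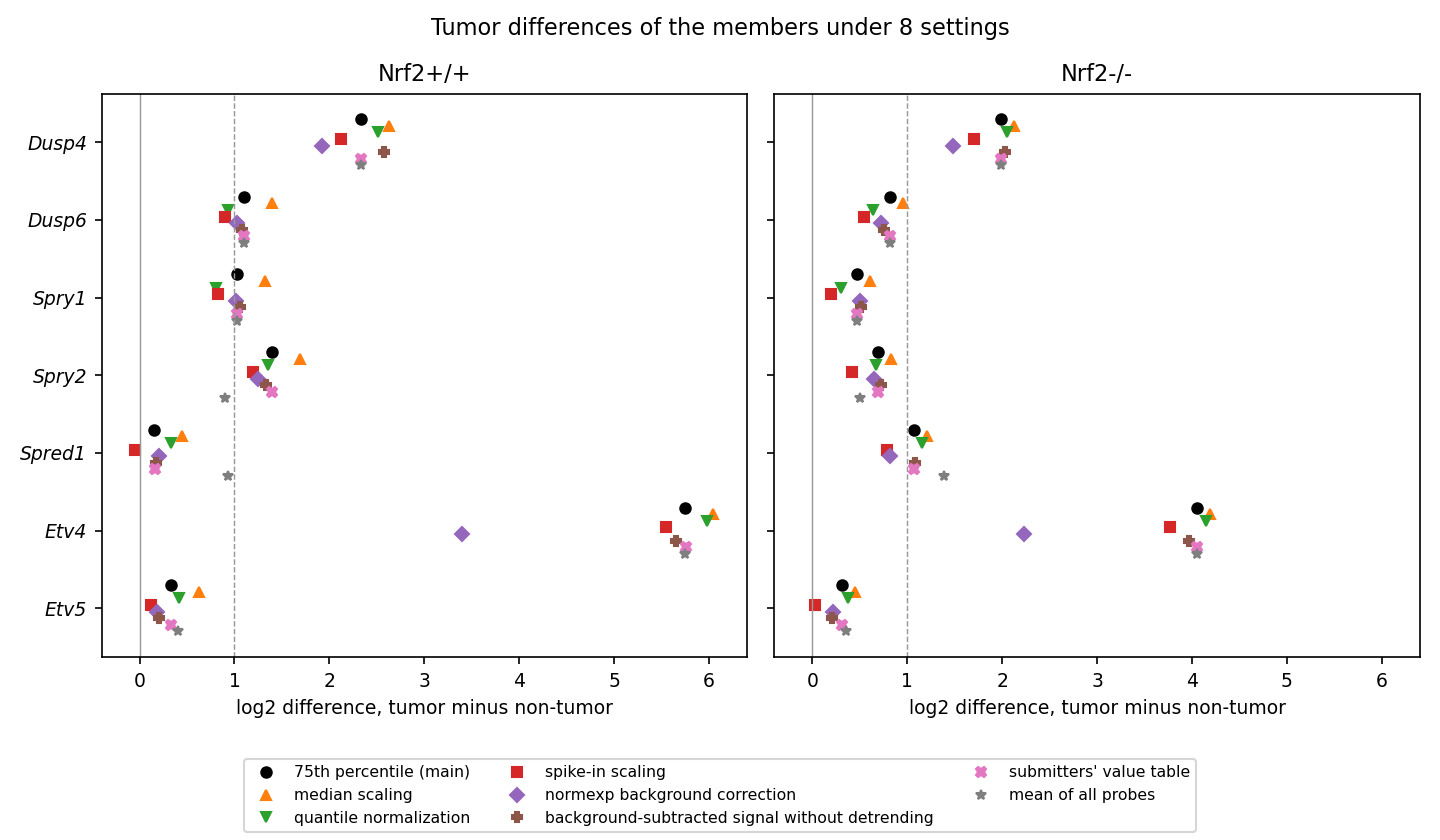
Tumor minus non-tumor difference (log2, x axis) of the 7 measured members under 8 settings, Nrf2+/+ on the left and Nrf2-/- on the right; black circles are the main setting, the solid line 0 and the dashed line 2-fold. Dusp4 and Etv4 stay beyond 2-fold under every setting shown, while Dusp6, Spry1 and Spry2 lie on both sides of the mark in Nrf2+/+ mice. Spred1 lies on both sides of it in Nrf2-/- mice.

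The second question was whether the genes differed between genotypes. In tumors 1 of 7 measured members, Etv4 (-1.02 ± 0.21), was at least 2-fold lower in Nrf2-/- and none was higher, beside 3.67% of 17824 genes lower and 4.29% higher. Spry1 (-0.72 ± 0.20), Spry2 (-0.56 ± 0.20), Dusp4 (-0.55 ± 0.21) and Spred1 (-0.31 ± 0.23) were lower by more than the error of the scanner software, whereas Dusp6 (-0.16 ± 0.20) and Etv5 (0.05 ± 0.21) differed by less than it. The median over the 7 members was -0.55, beside -0.03 over all measured genes, and these 2 arrays shared a slide. Of 10 cell cycle genes, 1 was at least 2-fold lower in Nrf2-/- tumor, Cdk1 (-1.03), the kinase that drives mitosis, and the 10 ranged from -1.03 to 0.12 with a median of -0.79. Among cell type markers in the same comparison, 5 of 5 mesothelial markers were at least 2-fold higher in Nrf2-/- tumor (median 1.17) and 3 of 6 ciliated markers lower (median -1.003), while type 2 markers had a median of 0.09. Medians were -0.77 for smooth muscle, -0.70 for club cell, 0.68 for T and NK cell and 0.62 for macrophage markers. The remaining lists had medians from 0.10 (cardiac muscle) to 0.45 (fibroblast). The part of these genes in the values of the members was not tested. The genotype effect of no member had a limma adjusted p under 0.05 in any setting, nor in the planned fit did that of any gene, beside 1910 genes (9.29%) with an unadjusted p under 0.05 and 0 to 240 genes called in other settings.

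In non-tumor lung 1 of 7 measured members, Spred1 (-1.22 ± 0.23), was at least 2-fold lower in Nrf2-/- and none was higher, beside 4.61% of 20190 genes lower and 3.04% higher. Spred1 stood at -0.78 with normexp and at -0.56 over the mean of its probes. Dusp4 (-0.21 ± 0.23), Dusp6 (0.12 ± 0.20), Spry1 (-0.16 ± 0.20), Spry2 (0.14 ± 0.20) and Etv5 (0.07 ± 0.21) differed by less than the error of the scanner software. Etv4 was not well above background in Nrf2+/+ non-tumor lung, and its difference of 0.68 ± 0.52 rests on signals at the edge of detection. Over the settings the Etv4 difference was 0.25 to 0.86. Mesothelial markers were at least 2-fold higher in Nrf2-/- non-tumor lung for 4 of 5 (median 1.28). The other cell type lists had medians from -0.45 (B cell) to 0.41 (T and NK cell). The part of these markers in the values of the members was not tested. These 2 arrays were on different slides, so slide and genotype cannot be told apart here, and the same holds for slide and tissue in the Nrf2+/+ tumor comparison. The 4 comparisons share arrays in pairs and are not independent of each other.

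Other genes of the pathway were read from fixed lists. By the brightest probe of each, none of 9 other MAP kinase phosphatases measured was at least 2-fold higher in tumor in either genotype, 4 were lower in Nrf2+/+ and 2 in Nrf2-/- mice (medians -0.92 and -0.46). The 2 lower in both were Dusp1, a nuclear phosphatase induced by stress and growth factors (-1.38 ± 0.20 and -1.19 ± 0.20), and Dusp8, which acts on the stress kinases JNK and p38 (-1.39 and -1.03). A second probe of Dusp9, well above background on all 4 arrays, gave 1.84 in Nrf2+/+ and 0.68 in Nrf2-/- mice, against 0.33 and 0.38 by the brighter one, and a second probe of Dusp14 gave -2.30 in Nrf2-/- mice against -0.85. The phosphatase family had members at both ends: within a pair of arrays, where scaling cancels, Dusp4 exceeded Dusp1 by 3.71 ± 0.30 in Nrf2+/+ and by 3.18 ± 0.30 in Nrf2-/- mice, a pair chosen after its values were seen. Of 10 other inhibitors of the pathway, 7 were measured in Nrf2+/+ and 6 in Nrf2-/- mice, and none passed 2-fold either way by its brightest probe; Errfi1, an inhibitor of the EGF receptor, stood at 0.92 and 0.77.

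The kinase cascade itself differed little. Of 18 measured genes, 1 was at least 2-fold higher in tumor in each genotype. It was the adaptor gene Shc1, which links receptors to Ras (1.39 and 1.17). The medians were 0.19 in Nrf2+/+ and 0.17 in Nrf2-/- mice. The gene lower in Nrf2+/+ tumor, Ksr1, a scaffold of the cascade, was not well above background in either tumor.

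Ets factors other than Etv4 and Etv5 lay on both sides of 0. In Nrf2+/+ mice 4 of 15 measured passed 2-fold upward in tumor and 2 downward (median -0.01), and in Nrf2-/- mice 3 passed it upward and 1 downward (median -0.26). The 3 higher in both were the epithelial factors Elf5 (2.33 and 1.51), Ehf (1.92 and 1.12) and Elf3 (1.42 and 1.35), and the 1 lower in both was Erg (-1.77 and -1.32), a factor of endothelial cells. Etv1, the third gene of the Pea3 group, stood at 1.03 in Nrf2+/+ and 0.41 in Nrf2-/- mice.

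Among AP-1 and immediate early genes, 2 of 12 measured were at least 2-fold higher in Nrf2+/+ tumor and 3 in Nrf2-/- tumor, and none was lower. Egr1, a zinc finger factor induced by ERK, stood at 2.29 and 1.72 and Junb at 1.08 and 1.15, with a second probe of Junb at 0.79 in both genotypes. Of 9 other targets of ERK measured, 3 passed 2-fold upward and 1 downward in Nrf2+/+ mice, and 2 passed it upward and none downward in Nrf2-/- mice (medians 0.81 and 0.72). Trib1, a pseudokinase (1.63 and 1.09), and Cdcp1, a transmembrane substrate of Src kinases (1.06 and 1.03), were higher in both. Epha4, an ephrin receptor, was lower in Nrf2-/- than in Nrf2+/+ tumor (-1.15, and -1.09 by its second probe), and Hmga2, a chromatin protein, was lower in Nrf2-/- than in Nrf2+/+ non-tumor lung by the probe used (-1.76) but not by its second probe (-0.02). None of the genes named here passed the limma fit as planned.

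**Figure D4:**
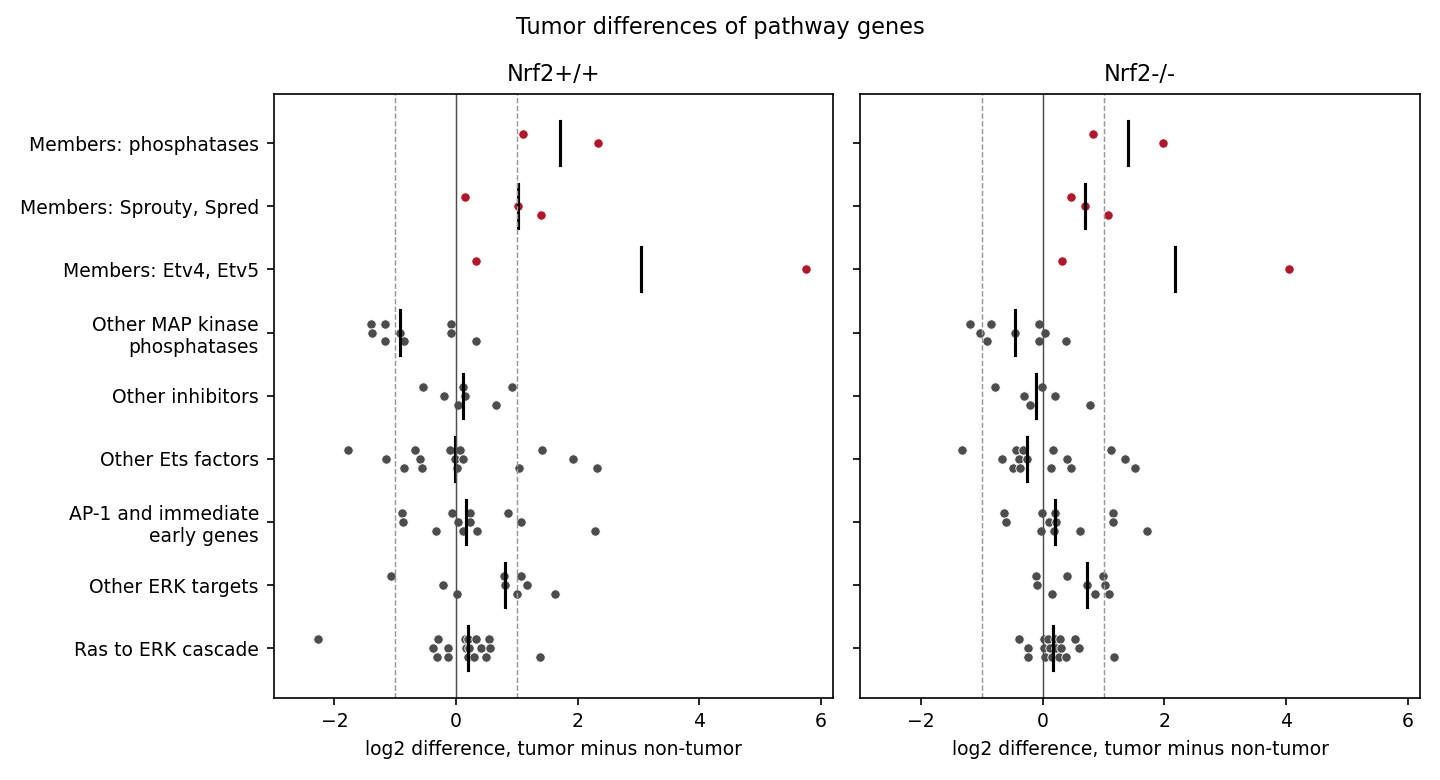
Tumor minus non-tumor difference (log2, x axis) of each measured gene of the 9 lists, Nrf2+/+ on the left and Nrf2-/- on the right; red points are members, grey points other genes, vertical bars medians and dashed lines 2-fold. The measured member phosphatases, Dusp4 and Dusp6, lie to the right of 0 while the other MAP kinase phosphatases have medians of -0.92 and -0.46.

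Marker genes of lung cell types also differed between tumor and non-tumor lung. Without Etv5, 7 of 9 alveolar type 2 markers were at least 2-fold higher in Nrf2+/+ tumor and 4 of 9 in Nrf2-/- tumor, none was lower, and all were well above background on all 4 arrays. Their summed signal, in multiples of the 75th percentile, was 687 and 811 in Nrf2+/+ and Nrf2-/- non-tumor lung and 1243 and 1315 in the matching tumors. These type 2 sums are mostly the signal of Sftpc and Sftpa1. In raw signal Sftpc gave 251628 and 276632 in non-tumor lung and 263641 and 266292 in tumor, so its higher level in tumor came mostly through scaling. Endothelial markers were lower (8 of 10 and 7 of 10 at least 2-fold; summed signal 277 and 285 in non-tumor lung, 110 and 144 in tumor), as were type 1 markers (5 of 7 and 2 of 7; 301 and 270 against 164 and 196) and ciliated markers (6 of 6 in both; 51.6 and 43.9 against 14.0 and 11.7). Among the type 1 markers Aqp5 alone went the other way (0.70 and 0.64). Smooth muscle markers (4 of 6 and 6 of 6), cardiac markers (5 of 6 in both) and mesothelial markers (5 of 5 in both) were at least 2-fold lower in tumor as well. Macrophage markers differed less, with 1 of 7 and 0 of 7 lower and summed signals of 221 and 235 in non-tumor lung and 253 and 294 in tumor. These sums are mostly the signal of Chil3 (0.33 and 0.44). The 7 markers ranged from -1.61 to 0.76 in Nrf2+/+ and from -0.88 to 0.87 in Nrf2-/- mice. Of 4 club cell markers, 1 was at least 2-fold higher in each genotype, and 1 in Nrf2+/+ and 2 in Nrf2-/- mice were lower. Fibroblast (2 of 8 and 1 of 8), T and NK cell (3 of 7 and 1 of 7) and B cell markers (2 of 4 and 0 of 4) passed 2-fold downward only. Of 5 neutrophil markers, 0 passed it in Nrf2+/+ mice and 1 passed it upward in Nrf2-/- mice. The 2-fold mark was passed by 8 of 10 cell cycle genes in Nrf2+/+ tumor and by none in Nrf2-/- tumor, with summed signals of 4.24 and 5.19 in non-tumor lung and 9.91 and 6.36 in tumor. The part of these shifts in the values of the members was not tested, and in pooled tissue a change in the number of cells of a type cannot be told apart from a change in RNA per cell.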

How the data were processed

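The deposited values are linear spot intensity. Agilent Feature Extraction 10.7.3.1 subtracted the background and detrended each Cy3 array (design 014868), without normalization between arrays, per the file headers. Per the labels' protocols, 500 ng RNA pooled from 8 mice was labelled per group. The submitters' value table, also deposited as intensity, equalled the processed signal within rounding, with column medians from 47.2 to 79.2 intensity units.

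From these, log2 signal minus the 75th percentile was computed. Non-uniform spots removed 4 of 41174 probes. RefSeq accessions (GRCm38.p6) named 26686 probes; 14484 had no symbol. A gene was represented by its brightest probe on average, and counted if well above background on 1 of the arrays compared. For Etv4 in Nrf2+/+ mice the fold is set against the dimmest level well above background on the non-tumor array, which is not a strict bound. The additive fit used limma 3.58.1 in R 4.3.3 (prior degrees of freedom 2.18), and other steps used Python 3.11.15. The fit was also run on simulated data with independent noise and no slide or genotype effect. That run cannot show whether the genotypes can serve as replicates of each other.

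Members, lists, the naming rule (all members; list genes past 2-fold the same way in both tumors; the largest genotype difference of a list if past 2-fold) and tests were chosen with earlier results of these data known. Genes named beyond the rule were chosen after their values were seen. Normexp (offset 50) used median spot signals, as the files gave those. Promoter stretches are from RefSeq; protein sequences were not used. Single values of some genes of the kinase cascade are not reported here.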

Additional observations from a re-analysis of the deposited data

How the results depend on the processing

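No paired analysis was possible because each group has 1 array. Members at least 2-fold higher in tumor numbered 5 in Nrf2+/+ mice and 3 with quantile normalization or spike-in scaling. They numbered 4 with the mean of all probes, and 4 when both arrays had to be well above background. In Nrf2-/- mice they numbered 3, 2 with spike-in scaling or normexp, and 5 at a 1.5-fold mark, which 11.0% of genes passed upward. In non-tumor lung the 1 member lower in Nrf2-/- became 0 with normexp and with the mean of all probes, and 1 was higher at 1.5-fold (7.003% of genes); in tumor the 1 lower became 0 with quantile normalization or normexp and 2 at 1.5-fold (7.94% of genes). In the limma fit the count of members with an adjusted tumor p under 0.05 went from 0 to 3 (median scaling), 2 (spike-in scaling), 5 (normexp), 4 (genes on all 4 arrays), 2 (no filter) and 5 (trend). The count over all genes went from 0 to 2152, 2873, 3176, 3855, 775 and 4627 in the same order, and for the genotype effect from 0 to 78, 1, 53, 150, 1 and 240. No member with a 2-fold difference changed sign under any setting run. Scaling also set the split over all genes: in Nrf2+/+ tumor 1608 genes passed 2-fold upward and 3053 downward, against 2633 and 2146 after median scaling and 1118 and 1172 after normexp; in Nrf2-/- tumor 1055 and 1773, against 742 and 2748 on spike-in probes, 1313 and 1417 after median scaling and 727 and 526 after normexp. The all-gene median shifted by 0.29 (median scaling), 0.12 (normexp) and -0.20 (spike-in probes) in the first comparison, and by 0.14 (median scaling) and -0.28 (spike-in probes) in the second. The cause of these changes was not tested. One pooled array per group gives no spread between animals, and values near background, as for Etv4 in non-tumor lung, are imprecise.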

Other observations

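The mean profile of the 6 members well above background on all 4 arrays was compared with 12285 other named genes, as the Euclidean distance over 4 values centred on each gene's mean. The 5 nearest were Hibadh (distance 0.039), Tgif1 (0.048), Tert (0.060), Cmtm8 (0.073) and Dnajc12 (0.091), beside a median of 1.04 over all these genes. The members themselves lay farther from their own mean, from 0.28 (Dusp6) to 1.19 (Dusp4), so the mean profile describes none of them closely. With 4 points this is a description of the arrays.

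Feedback genes of one family differed in direction within the same arrays. Dusp6 exceeded Dusp1 in its tumor difference by 2.48 ± 0.29 in Nrf2+/+ and by 2.01 ± 0.29 in Nrf2-/- mice, and over the settings by 2.42 to 2.51 and by 1.82 to 2.01. Spry2 and Spry1 differed from each other by 0.37 ± 0.29 and 0.23 ± 0.29, and by -0.13 in Nrf2+/+ mice over the mean of all probes. These pairs were chosen after their values were seen.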
